A study of Mus musculus with 18 samples.

Results

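Fatty acid uptake and oxidation genes were examined here as a set of 40 genes, chosen by name for their roles in bringing long-chain fatty acids into the cell and breaking them down. All 40 were found among the 55414 genes of the count table, and all 40 passed the filter of at least 10 counts over the 18 libraries that 21772 genes passed. They fall into 9 roles, from uptake and binding (4 genes) through activation to acyl-CoA (5), carnitine transfer (6), acyl-CoA dehydrogenases (6), the later steps of the mitochondrial spiral (5), auxiliary enzymes for unsaturated acids (3), peroxisomal oxidation (5) and electron transfer (3) to acyl-CoA thioesterases (3).

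RNA of C2C12 myotubes, an established mouse muscle cell line, was profiled in 18 libraries, 3 for each of 6 groups. At full confluence the cells received SMARTpool siRNAs by DharmaFECT Duo, either non-targeting (siNtc), against Erk3 (siErk3) or against its candidate partner kinase Mk5 (siMk5), and they were differentiated for 6 days. For the last 16 h all of them stood in serum-free medium, with BSA alone as vehicle (BSA) or with 0.5 mM palmitic acid carried on BSA (PA), so that the 6 groups are siNtc BSA, siErk3 BSA, siMk5 BSA, siNtc PA, siErk3 PA and siMk5 PA. All groups share 1 cell line, the transfection and the serum withdrawal. It is not stated whether the libraries of a group came from separate cultures, so the tests measure the spread between these libraries.

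A long-chain fatty acid crosses the plasma membrane with the help of CD36 and FATP proteins, is bound by a cytosolic carrier, and is joined to coenzyme A by an acyl-CoA synthetase. The carnitine shuttle then carries the acyl group into the mitochondrion, where each turn of the beta-oxidation spiral removes an acetyl-CoA through dehydrogenation, hydration, a further dehydrogenation and thiolysis, and electrons pass on through the electron transfer flavoprotein. In muscle, fatty acids themselves are ligands of the PPAR receptors, which are known to act on many of these genes.

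Total counts ran from 13041979 to 28496727 read pairs per library. The share of the 18S ribosomal RNA gene was 1.5% to 12.87%, with the highest values (8.39% to 12.87%) in siMk5 BSA, and no pair of replicates was as alike as sampling noise alone would make it. Values per library are CPM, counts divided by library size after scaling with edgeR's TMM factors. A gene counted as changed with a false discovery rate (FDR, Benjamini-Hochberg, from edgeR's quasi-likelihood test over all 21772 genes) below 0.05 and a level more than 1.3-fold higher or lower. The gene of Erk3, Mapk6, was lower with siErk3 by a log2 fold change of -1.20 (edgeR FDR = 1.77e-14) in BSA and, with PA, -0.95 (edgeR FDR = 1.21e-12). The gene of Mk5, Mapkapk5, was lowly expressed, with means of 2.46 CPM in siNtc BSA and 1.63 in siMk5 BSA. Its log2 fold change with siMk5 came to -0.61 (edgeR FDR = 0.469) without PA and -0.49 (edgeR FDR = 0.469) with it. Neither passed, so its silencing is not shown by the RNA of these libraries. The paper reports efficient silencing of both kinases by Western blot. Of 12 myotube markers, 12 passed the count filter, while of 9 adipocyte markers 3 passed and Plin1, Cidec and Cfd were at 0 in every library.

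The promoters of 6 members are printed because results turn on these genes: Acot2, Cpt1a and Acadl were higher with PA, Echs1 was lower, the window of Hadhb overlaps that of its neighbour Hadha, and Cd36 was the 1 member that differed with a silencing. Each run holds 250 bases before to 50 bases after a transcription start of RefSeq on build GRCm38.p6, written 5′ to 3′ on the strand of the gene, with the hexamer AGGTCA, the core site of nuclear receptors, or its reverse complement in capitals. The windows are chr12:83987611-83987910, plus strand for Acot2, chr19:3323051-3323350, plus strand for Cpt1a, chr1:66863260-66863559, minus strand for Acadl, chr7:140116372-140116671, minus strand for Echs1, chr5:30155003-30155302, plus strand for Hadhb and chr5:17835847-17836146, minus strand for Cd36.
Acot2: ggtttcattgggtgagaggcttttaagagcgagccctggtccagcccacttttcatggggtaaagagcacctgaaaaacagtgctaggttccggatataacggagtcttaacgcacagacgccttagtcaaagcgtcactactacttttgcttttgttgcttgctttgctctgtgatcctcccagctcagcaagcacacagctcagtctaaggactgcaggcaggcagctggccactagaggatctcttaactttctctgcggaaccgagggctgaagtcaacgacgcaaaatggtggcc
Cpt1a: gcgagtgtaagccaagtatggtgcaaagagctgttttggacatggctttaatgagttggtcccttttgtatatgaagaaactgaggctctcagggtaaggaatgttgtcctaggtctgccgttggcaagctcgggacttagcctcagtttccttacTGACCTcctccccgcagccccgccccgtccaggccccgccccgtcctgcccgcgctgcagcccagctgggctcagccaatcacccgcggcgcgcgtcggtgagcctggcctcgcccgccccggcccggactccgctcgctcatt
Acadl: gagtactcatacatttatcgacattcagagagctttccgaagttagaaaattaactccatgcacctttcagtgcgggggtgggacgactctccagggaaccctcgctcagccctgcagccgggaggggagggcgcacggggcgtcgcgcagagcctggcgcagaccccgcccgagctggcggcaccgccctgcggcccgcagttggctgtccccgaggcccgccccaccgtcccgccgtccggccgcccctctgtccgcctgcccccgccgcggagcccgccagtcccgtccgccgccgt
Echs1: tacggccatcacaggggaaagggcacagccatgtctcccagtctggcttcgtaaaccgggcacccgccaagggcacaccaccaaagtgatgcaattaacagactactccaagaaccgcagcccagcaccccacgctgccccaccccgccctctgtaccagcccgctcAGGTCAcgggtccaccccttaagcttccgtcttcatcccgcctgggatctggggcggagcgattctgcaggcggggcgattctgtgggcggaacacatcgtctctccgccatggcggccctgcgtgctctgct
Hadhb: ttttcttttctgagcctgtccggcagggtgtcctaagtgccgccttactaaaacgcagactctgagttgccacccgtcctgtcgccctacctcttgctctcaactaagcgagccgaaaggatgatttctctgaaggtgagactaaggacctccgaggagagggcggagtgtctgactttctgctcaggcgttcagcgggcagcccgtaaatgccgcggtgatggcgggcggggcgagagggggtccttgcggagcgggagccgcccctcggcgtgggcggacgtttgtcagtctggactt
Cd36: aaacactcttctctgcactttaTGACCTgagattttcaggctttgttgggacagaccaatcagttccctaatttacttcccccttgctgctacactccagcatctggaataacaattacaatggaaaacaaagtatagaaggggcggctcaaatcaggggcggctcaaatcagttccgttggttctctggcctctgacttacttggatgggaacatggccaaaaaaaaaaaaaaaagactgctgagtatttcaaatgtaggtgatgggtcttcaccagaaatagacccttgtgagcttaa

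RefSeq windows were at hand for 33 of the 40 members, 39 windows in all. The direct repeat read by PPAR with its partner RXR, searched on both strands as the hexamer AGGNCA followed after 1 base by the same hexamer, was in 0 of the 39 windows and in 125 of all 32851 windows (0.381%). At so low a share, 0 in 39 windows is likely for any set of genes, so this count is no result about the members. The hexamer AGGTCA, which can overlap that repeat, was in 6 of 39 windows (15.4%) and in 16.3% of all windows. It began 94 bases before the start in Cpt1a, 83 before it in Echs1 and 228 before it in Cd36, and the others were in Acadm, Acadvl and Acsl6. The members with this hexamer included genes that were higher, lower and not called with PA, and these letters were no more common in the members than in all windows. The search covers only these windows.

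With PA, 10 of the 40 members changed in siNtc (6 higher, 4 lower), when 30.6% of all genes tested did (15.5% higher, 15.1% lower). In siErk3 it was also 10 members (5 higher, 5 lower), against 32.1% of all genes (15.8% higher, 16.3% lower), and in siMk5 11 members (7 higher, 4 lower), against 29.7% of all genes (15.1% higher, 14.6% lower). The share of members that changed was thus near that of all genes in each siRNA and is no result about the set. The median log2 fold change of the members was -0.04 in siNtc, -0.05 in siErk3 and -0.07 in siMk5, beside -0.03, -0.01 and -0.01 for all genes. In each of the 3 comparisons, which share no library, 5 members rose (Slc27a1, Acsl1, Cpt1a, Acadl and Acot2) and 4 fell (Acsl6, Acad11, Echs1 and Acox3). Beside 12% and 10.8% of all genes, these counts by both criteria too are near those of all genes. Groups did not overlap for 9 members with PA higher and 15 with PA lower in siNtc, beside 26.9% and 24.3% of all genes. These counts were 10 and 18 in siErk3 (27.5% and 26.5% of all genes) and 11 and 17 in siMk5 (27.3% and 24.6%). By FDR alone, 22 members passed in siNtc (9 higher, 13 lower), 27 in siErk3 (11 and 16) and 25 in siMk5 (11 and 14), beside 45.1%, 47.1% and 44.3% of all genes. Under each siRNA, the share of the 40 members was above that of all genes by FDR alone and for PA lower without overlap. For PA higher without overlap it was near that of all genes or below it. Whether the members as a set differ from all genes in these shares was not tested, and the paragraphs below are about single genes. Another 4 members met both criteria in 1 of the 3 comparisons (Acsl4 in siNtc, Ehhadh in siErk3, Cd36 and Cpt1b in siMk5), as did 10.8% of all genes, and 27 met them in none, as did 59.7% of all genes. Acsl4 had an FDR below 0.05 in all 3, and the interactions of these 4 genes did not pass in edgeR.

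**Figure D1:**
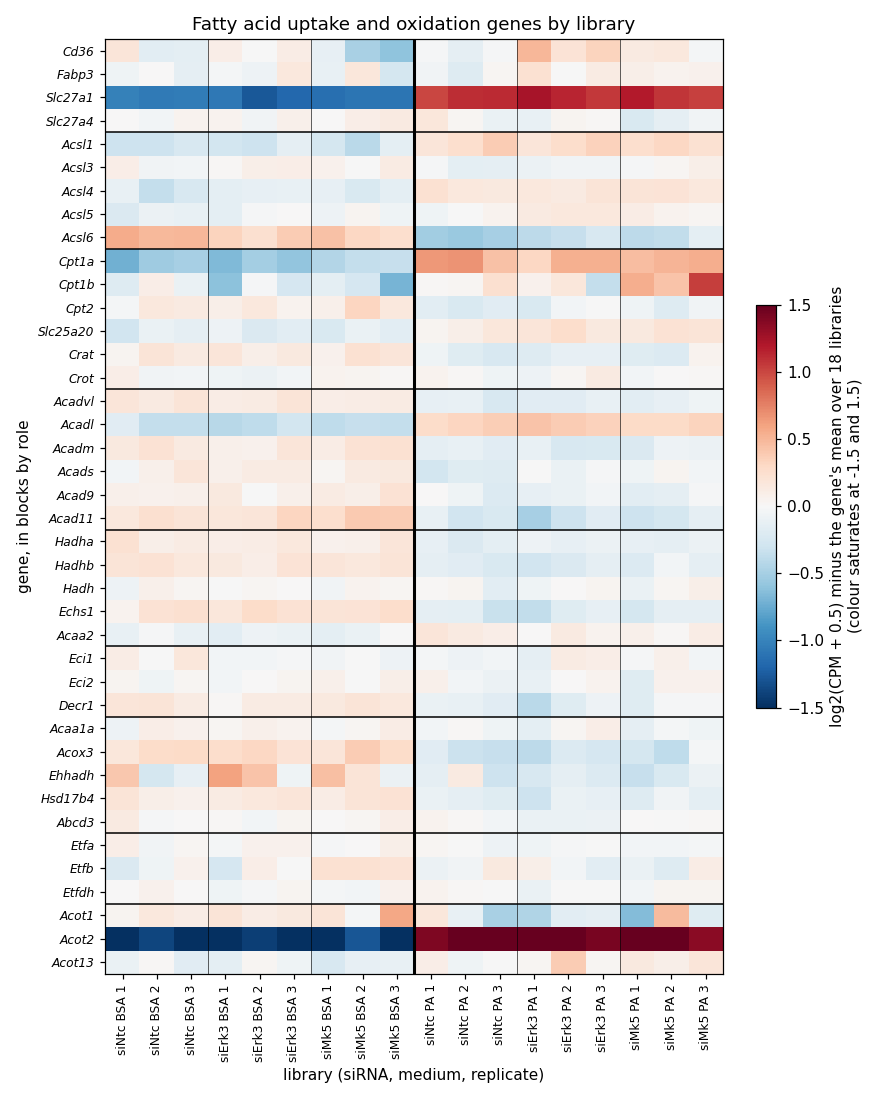
Level of each member in each library, as log2(CPM + 0.5) minus the mean of the gene over the 18 libraries, with genes in rows grouped by role and libraries in columns. Slc27a1 and Acot2 separate the 9 BSA libraries (left) from the 9 PA libraries (right) most clearly, and Acsl6, Acad11, Echs1 and Acox3 run the other way.

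**Figure D2:**
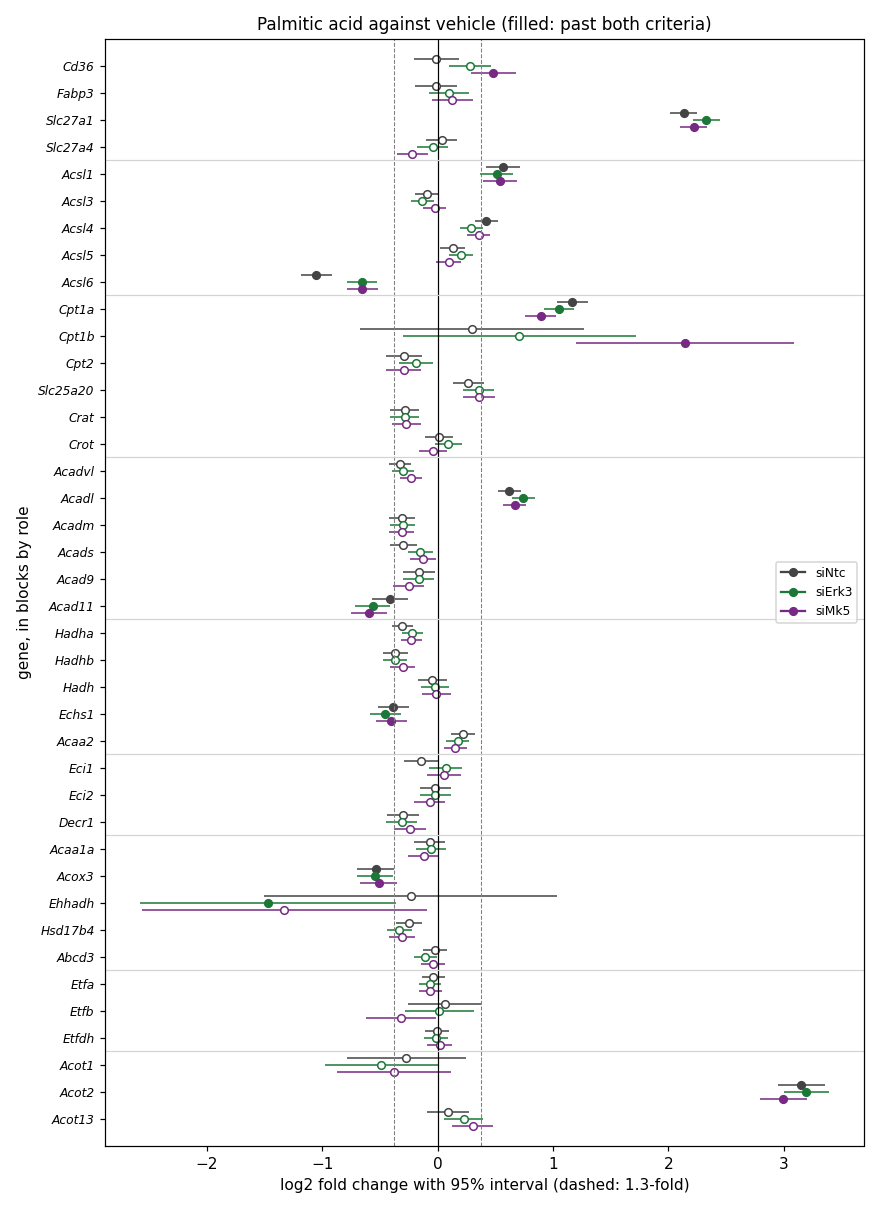
Log2 fold change of PA against BSA for each member in siNtc, siErk3 and siMk5, with 95% intervals. Filled points passed both criteria, dashed lines mark a fold change of 1.3, and Acot2 and Slc27a1 lie farthest to the right.

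Of the uptake genes, Slc27a1 (ENSMUSG00000031808, chromosome 8, 72021526 to 72039946, plus strand, GRCm39), which encodes the fatty acid transport protein FATP1, rose the most. Slc27a1 stood at 52.97, 51.2 and 51.9 CPM in the siNtc BSA libraries and at 217, 232 and 235 CPM in the siNtc PA libraries. With siErk3, its level was 51.1, 44.4 and 47.2 CPM in BSA and 255, 237 and 225 CPM in PA. In siMk5 these values were 48.9, 50.1 and 50.1 CPM (BSA) and 247, 228 and 219 CPM (PA). Every PA library was above every BSA library, under each siRNA. The rise was 4.38-fold in siNtc, 5.03-fold in siErk3 and 4.66-fold in siMk5, with log2 fold changes of 2.13 in siNtc (SE 0.06, FDR = 1.29e-23), 2.33 in siErk3 (SE 0.06, FDR = 8.18e-25) and 2.22 in siMk5 (SE 0.06, FDR = 4.52e-24). The other transporter of its family, Slc27a4, had log2 fold changes of 0.04, -0.04 and -0.22, with an FDR below 0.05 in siMk5 alone (FDR = 0.00757) and a fold change below 1.3 throughout. Fabp3, the muscle carrier that binds fatty acids in the cytosol, gave -0.01, 0.10 and 0.13, and its FDR was 0.953, 0.377 and 0.261.

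Cd36 (ENSMUSG00000002944, chromosome 5, 17986688 to 18093799, minus strand, GRCm39), which encodes the fatty acid translocase, had a different pattern. Cd36 stood at 47.8, 37.6 and 38.1 CPM in the siNtc BSA libraries and at 41.6, 38.3 and 41.6 CPM in the siNtc PA libraries. In siErk3 it stood at 45.00, 41.8 and 45.6 CPM in BSA and 59.6, 48.4 and 53.00 CPM in PA. With siMk5 it was 38.5, 29.9 and 27.6 CPM in BSA and 46.3, 47.01 and 41.3 CPM in PA. The PA and BSA libraries overlapped in siNtc, and the lowest value of all was in a siMk5 BSA library. The log2 fold changes with PA were -0.01 in siNtc (SE 0.09, FDR = 0.954), 0.28 in siErk3 (SE 0.09, FDR = 0.00955) and 0.48 in siMk5 (SE 0.09, FDR = 7.71e-05), so that both criteria were met in siMk5, while in siErk3 the fold change stayed below 1.3. The interactions, which test whether the PA effect differed from that in siNtc, gave 0.29 (FDR = 0.753) for siErk3 and 0.49 (FDR = 0.156) for siMk5, neither of which passed. The interaction with siMk5 did pass without siMk5 BSA replicate 1 (0.65, edgeR FDR = 0.00916) and without a filter on low counts (edgeR FDR = 2.24e-05), and in DESeq2 it did not (adjusted p = 0.0825).

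Among the 5 long-chain acyl-CoA synthetases, which activate fatty acids for all later steps, Acsl3 had the highest level per length in siNtc BSA and Acsl1 the lowest, and PA moved Acsl1, Acsl4 and Acsl6. Acsl1 (ENSMUSG00000018796, chromosome 8, 46924074 to 46989088, plus strand, GRCm39), the synthetase tied to oxidation in muscle and heart, rose. Acsl1 stood at 18.8, 18.8 and 19.8 CPM in the siNtc BSA libraries and at 26.5, 27.96 and 30.6 CPM in the siNtc PA libraries. The siErk3 libraries gave 19.3, 18.8 and 21.2 CPM in BSA and 26.7, 28.2 and 29.8 CPM in PA. For siMk5 the values were 19.4, 17.6 and 21.05 CPM in BSA and 27.9, 29.1 and 27.5 CPM in PA. All 9 PA libraries were above all 9 BSA libraries, and the log2 fold changes came to 0.57 in siNtc (SE 0.07, FDR = 1.05e-07), 0.51 in siErk3 (SE 0.07, FDR = 2.69e-07) and 0.54 in siMk5 (SE 0.07, FDR = 2.06e-07).

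Acsl6 (ENSMUSG00000020333, chromosome 11, 54194624 to 54255582, plus strand, GRCm39), best known from brain, fell. Acsl6 stood at 51.8, 49.3 and 49.7 CPM in the siNtc BSA libraries and at 24.3, 23.7 and 24.8 CPM in the siNtc PA libraries. With siErk3, its level was 44.4, 41.5 and 45.9 CPM in BSA and 26.8, 27.5 and 29.6 CPM in PA. In siMk5 these values were 47.8, 43.8 and 41.9 CPM (BSA) and 26.7, 27.02 and 31.6 CPM (PA). No PA library reached the level of any BSA library. The log2 fold changes were -1.05 in siNtc (SE 0.07, FDR = 2.74e-14), -0.66 in siErk3 (SE 0.06, FDR = 3.82e-10) and -0.65 in siMk5 (SE 0.07, FDR = 8.11e-10). The estimated fall was larger in siNtc, but the interactions of 0.40 with siErk3 (SE 0.09, FDR = 0.167) and 0.40 with siMk5 (SE 0.09, FDR = 0.0675) did not pass in edgeR, although they did in DESeq2 (adjusted p = 0.0499 and 0.0197). The interaction with siMk5 also passed in edgeR without siMk5 BSA replicate 1 (FDR = 0.0252) or siMk5 PA replicate 1 (FDR = 0.0317), and without a filter on low counts both did (FDR = 0.00416 and 0.00469).

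Acsl4 (ENSMUSG00000031278, chromosome X, 141100989 to 141173531, minus strand, GRCm39), which prefers arachidonic acid, rose in siNtc. Acsl4 stood at 127, 107 and 116 CPM in the siNtc BSA libraries and at 161, 153 and 152 CPM in the siNtc PA libraries. In siErk3 it stood at 124, 126 and 127 CPM in BSA and 154, 151 and 157 CPM in PA. With siMk5 it was 125, 117 and 123 CPM in BSA and 157, 158 and 153 CPM in PA. PA libraries were above BSA libraries in each siRNA. The log2 fold changes were 0.42 in siNtc (SE 0.05, FDR = 1.71e-08), 0.29 in siErk3 (SE 0.05, FDR = 7.71e-06) and 0.35 in siMk5 (SE 0.05, FDR = 3.75e-07), and in siErk3 and siMk5 the fold change was below 1.3. Without siNtc BSA replicate 2, the value in siNtc was 0.34, below the fold criterion. Acsl3 gave -0.10, -0.13 and -0.03 and Acsl5 0.13, 0.20 and 0.10, and neither met both criteria. The FDR was below 0.05 for Acsl3 in siErk3 and for Acsl5 in siNtc and siErk3. As shares of the summed CPM per kb of the 5 genes in siNtc, Acsl3 went from 54.5% ± 0.874 in BSA to 49.04% ± 1.06 in PA, Acsl4 from 23.8% ± 1.06 to 30.7% ± 0.411, and Acsl6 from 5.63% ± 0.104 to 2.61% ± 0.0809 (SD, n = 3).

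In the carnitine shuttle, Cpt1a (ENSMUSG00000024900, chromosome 19, 3372334 to 3435733, plus strand, GRCm39), the carnitine palmitoyltransferase of the outer mitochondrial membrane that gates entry, rose. Cpt1a stood at 66.7, 75.8 and 78.1 CPM in the siNtc BSA libraries and at 173, 176 and 149 CPM in the siNtc PA libraries. The siErk3 libraries gave 69.5, 77.00 and 72.9 CPM in BSA and 136, 159.7 and 159.6 CPM in PA. For siMk5 the values were 81.1, 85.7 and 86.2 CPM in BSA and 152, 156 and 161 CPM in PA. All PA libraries were above all BSA libraries. The rise was 2.25-fold in siNtc, 2.08-fold in siErk3 and 1.86-fold in siMk5, with log2 fold changes of 1.17 in siNtc (SE 0.07, FDR = 1.5e-15), 1.05 in siErk3 (SE 0.06, FDR = 9.17e-15) and 0.89 in siMk5 (SE 0.06, FDR = 5.81e-13). The interaction with siMk5 was -0.28 (SE 0.09, FDR = 0.389).

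The muscle form Cpt1b (ENSMUSG00000078937, chromosome 15, 89300608 to 89310066, minus strand, GRCm39) was barely counted: 81.4% of its exonic bases are shared on the same strand with the readthrough gene Gm44502, and read pairs on shared bases were assigned to neither, so its level is understated. In siNtc its counts were 4, 11 and 7 in BSA and 9, 9 and 11 in PA. With siErk3 they were 2, 9 and 7 in BSA and 10, 14 and 4 in PA. In siMk5 they were 7, 5 and 1 in BSA and 18, 15 and 26 in PA, and only there did the groups differ by both criteria. The log2 fold changes were 0.30 in siNtc (SE 0.47, FDR = 0.667), 0.71 in siErk3 (SE 0.50, FDR = 0.261) and 2.14 in siMk5 (SE 0.46, FDR = 0.000255), and the interaction with siMk5 did not pass (1.85, SE 0.68, FDR = 0.508).

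Cpt2, which returns the acyl group to coenzyme A on the inner membrane, moved little. Cpt2 stood at 23.7, 27.00 and 26.6 CPM in the siNtc BSA libraries and at 21.6, 20.5 and 21.4 CPM in the siNtc PA libraries. With siErk3, its level was 25.7, 26.8 and 24.9 CPM in BSA and 20.4, 23.5 and 24.1 CPM in PA. In siMk5 these values were 25.3, 30.3 and 26.98 CPM (BSA) and 23.1, 20.9 and 23.3 CPM (PA). Each PA library was below each BSA library of the same siRNA. Its log2 fold changes were -0.29 in siNtc (SE 0.08, FDR = 0.00197), -0.19 in siErk3 (SE 0.07, FDR = 0.0335) and -0.30 in siMk5 (SE 0.07, FDR = 0.00146), under 1.3-fold. Slc25a20, the carnitine-acylcarnitine carrier of the inner membrane, went the other way. Slc25a20 stood at 19.2, 21.9 and 21.2 CPM in the siNtc BSA libraries and at 24.1, 24.9 and 26.5 CPM in the siNtc PA libraries. In siErk3 it stood at 22.3, 20.1 and 20.97 CPM in BSA and 26.7, 28.3 and 25.95 CPM in PA. With siMk5 it was 20.02, 21.8 and 20.9 CPM in BSA and 26.1, 27.4 and 26.9 CPM in PA. PA libraries were above BSA libraries throughout. Its log2 fold changes of 0.27 in siNtc (SE 0.07, FDR = 0.00146), 0.36 in siErk3 (SE 0.06, FDR = 2.51e-05) and 0.36 in siMk5 (SE 0.07, FDR = 3.91e-05) also stayed below 1.3-fold, but passed it without siErk3 BSA replicate 1 (0.38 in siErk3) or without siMk5 BSA replicate 2 (0.40 in siMk5). Crat gave -0.29, -0.29 and -0.27 and Crot 0.01, 0.09 and -0.04. These are the acetyl and octanoyl transferases, and neither met both criteria, although Crat had an FDR below 0.05 under each siRNA.

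**Figure D3:**
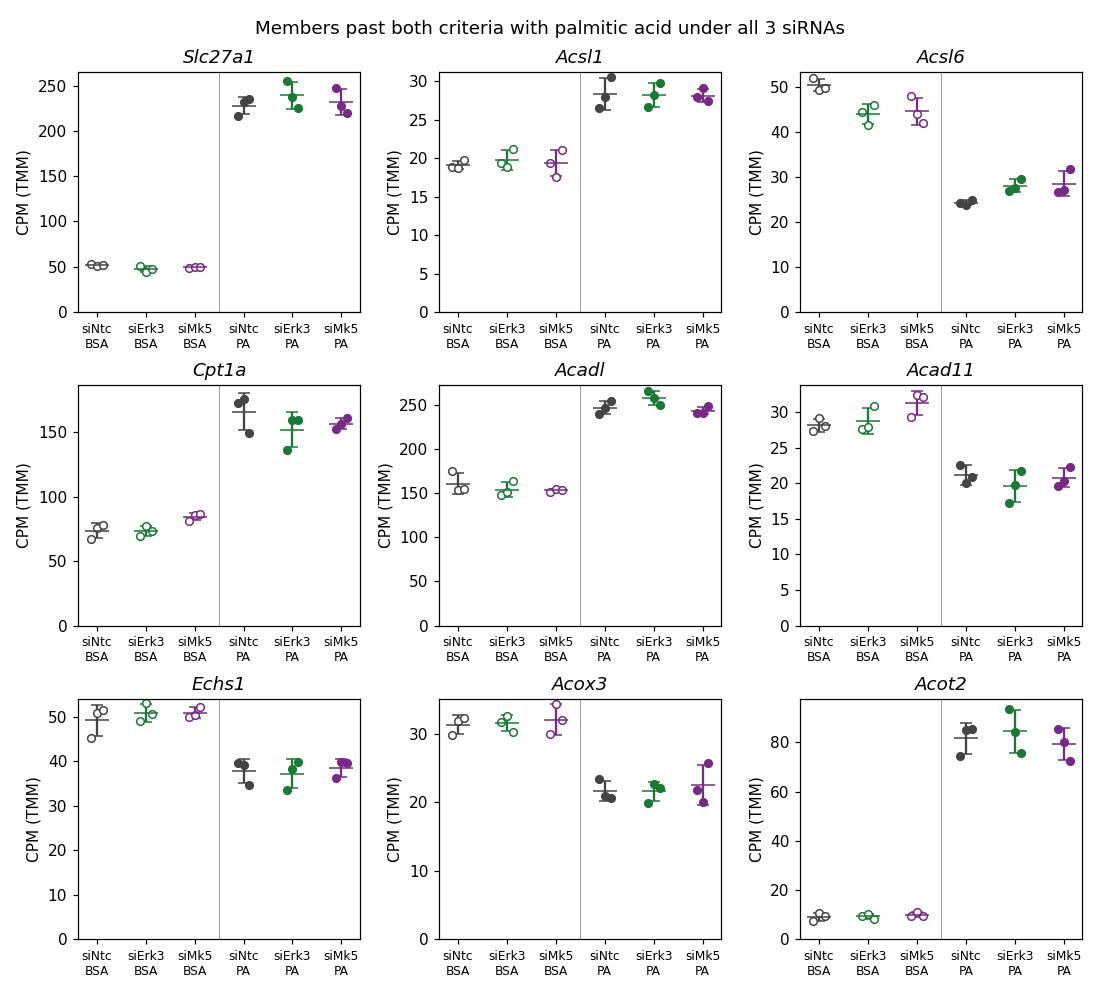
TMM-scaled CPM per library of the 9 members that changed with PA in all of siNtc, siErk3 and siMk5, each panel starting at 0. Points are libraries (open BSA, filled PA), bars the mean ± SD of 3, and in every panel the 9 PA libraries lie to one side of the 9 BSA libraries.

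The acyl-CoA dehydrogenases, which open each turn of the spiral, moved in both directions. Acadl (ENSMUSG00000026003, chromosome 1, 66869998 to 66902436, minus strand, GRCm39), the long-chain enzyme, rose. Acadl stood at 175, 153 and 154 CPM in the siNtc BSA libraries and at 239, 247 and 254 CPM in the siNtc PA libraries. The siErk3 libraries gave 147, 151 and 163 CPM in BSA and 266, 258 and 249.7 CPM in PA. For siMk5 the values were 152, 155 and 153 CPM in BSA and 241, 241 and 248 CPM in PA. PA libraries lay above all BSA libraries, with log2 fold changes of 0.62 in siNtc (SE 0.05, FDR = 3.91e-12), 0.74 in siErk3 (SE 0.05, FDR = 4.53e-14) and 0.67 in siMk5 (SE 0.05, FDR = 8.13e-13). The very long-chain enzyme Acadvl gave -0.33, -0.30 and -0.23 and the medium-chain enzyme Acadm -0.31, -0.30 and -0.31. Both had an FDR below 0.05 under each siRNA and a fold change below 1.3. The short-chain enzyme Acads gave -0.30, -0.15 and -0.13 and Acad9, which also serves assembly of complex I, -0.16, -0.16 and -0.25. The FDR was below 0.05 for Acads in siNtc and siErk3 and for Acad9 in siErk3 and siMk5, with a fold change below 1.3 throughout. Acad11 (ENSMUSG00000090150, chromosome 9, 103940576 to 104004924, plus strand, GRCm39), an enzyme for hydroxylated and longer acyl-CoAs, fell. Acad11 stood at 27.3, 29.1 and 27.99 CPM in the siNtc BSA libraries and at 22.6, 19.97 and 20.9 CPM in the siNtc PA libraries. With siErk3, its level was 27.6, 27.9 and 30.8 CPM in BSA and 17.3, 19.7 and 21.7 CPM in PA. In siMk5 these values were 29.4, 32.4 and 32.1 CPM (BSA) and 19.7, 20.4 and 22.2 CPM (PA). No PA library reached the BSA libraries. The log2 fold changes were -0.41 in siNtc (SE 0.08, FDR = 3.33e-05), -0.56 in siErk3 (SE 0.07, FDR = 1.45e-07) and -0.59 in siMk5 (SE 0.08, FDR = 7.81e-08).

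In the later steps of the spiral, 1 of 5 genes fell by both criteria and none rose by both. Echs1 (ENSMUSG00000025465, chromosome 7, 139685623 to 139696389, minus strand, GRCm39), the short-chain enoyl-CoA hydratase, fell. Echs1 stood at 45.2, 50.8 and 51.5 CPM in the siNtc BSA libraries and at 39.5, 39.2 and 34.6 CPM in the siNtc PA libraries. In siErk3 it stood at 49.1, 53.01 and 50.5 CPM in BSA and 33.5, 38.3 and 39.8 CPM in PA. With siMk5 it was 49.97, 50.4 and 52.2 CPM in BSA and 36.2, 39.8 and 39.5 CPM in PA. PA and BSA libraries did not overlap. Its log2 fold changes were -0.39 in siNtc (SE 0.07, FDR = 1.11e-05), -0.45 in siErk3 (SE 0.06, FDR = 4.97e-07) and -0.40 in siMk5 (SE 0.07, FDR = 5.35e-06), close to the 1.3-fold limit, and 1 of them fell short of it without siNtc BSA replicate 2 (-0.38) or siNtc PA replicate 3 (-0.35) and another without siMk5 PA replicate 1 (-0.37). Hadha and Hadhb encode both subunits of the mitochondrial trifunctional protein. They lie head to head on chromosome 5 with 85 bases between them, and their RefSeq windows share 228 bases, most of the Hadhb window printed above. Hadha gave log2 fold changes of -0.31, -0.22 and -0.23 and Hadhb -0.37, -0.37 and -0.30, each with an FDR below 0.05 and a fold change below 1.3. Acaa2 gave 0.22, 0.18 and 0.15 with an FDR below 0.05 under each siRNA and a fold change below 1.3. Hadh, the short-chain hydroxyacyl-CoA dehydrogenase, gave -0.05, -0.02 and -0.01.

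Of the auxiliary enzymes, which bring unsaturated acids into the spiral, Decr1 gave -0.30, -0.31 and -0.24 with an FDR below 0.05 each time and a fold change below 1.3. The isomerases Eci1 and Eci2 gave -0.15, 0.07 and 0.06 and -0.02, -0.02 and -0.07 with no FDR below 0.05. In electron transfer, Etfa gave -0.04, -0.07 and -0.06, Etfdh -0.01, -0.02 and 0.02 and Etfb 0.06, 0.01 and -0.32, none with an FDR below 0.05. Etfb shares 58.2% of its exonic bases with Etfbl, so its level is understated as well. For Etfa in siNtc, the 95% interval of the log2 fold change was -0.14 to 0.06, inside the 1.3-fold limits. Such an interval was found for 18 members in siNtc, 18 in siErk3 and 17 in siMk5.

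In peroxisomal oxidation, Acox3 (ENSMUSG00000029098, chromosome 5, 35740384 to 35772696, plus strand, GRCm39), an acyl-CoA oxidase for branched acids, fell. Acox3 stood at 29.7, 31.9 and 32.2 CPM in the siNtc BSA libraries and at 23.3, 20.9 and 20.6 CPM in the siNtc PA libraries. The siErk3 libraries gave 31.6, 32.6 and 30.2 CPM in BSA and 19.9, 22.7 and 22.03 CPM in PA. For siMk5 the values were 29.9, 34.3 and 31.9 CPM in BSA and 21.8, 19.99 and 25.7 CPM in PA. The PA libraries were below all BSA libraries, by log2 fold changes of -0.54 in siNtc (SE 0.08, FDR = 8.73e-07), -0.54 in siErk3 (SE 0.08, FDR = 3.36e-07) and -0.51 in siMk5 (SE 0.08, FDR = 1.6e-06). Hsd17b4, the peroxisomal multifunctional enzyme, gave -0.25, -0.33 and -0.31 with an FDR below 0.05 each time and a fold change below 1.3. The thiolase Acaa1a gave -0.07, -0.06 and -0.12 and the transporter Abcd3 -0.03, -0.11 and -0.04. Ehhadh, the L-bifunctional enzyme, is named here after its values were seen. It had 15, 12 and 6 counts in siErk3 BSA and 3, 5 and 3 in siErk3 PA, a log2 fold change of -1.47 (SE 0.54, FDR = 0.0253). In siMk5 its log2 fold change was -1.33 (edgeR FDR = 0.0763, and 0.0419 without siMk5 BSA replicate 3), and in siNtc -0.24 (edgeR FDR = 0.805). The call in siErk3 was lost in DESeq2 (adjusted p = 0.0607) and without siErk3 BSA replicate 1 (FDR = 0.133, edgeR), siErk3 BSA replicate 2 (0.0675) or siErk3 PA replicate 1 (0.065).

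Acyl-CoA thioesterases release free fatty acid from coenzyme A, and here Acot2 (ENSMUSG00000021226, chromosome 12, 84034635 to 84040647, plus strand, GRCm39), the mitochondrial enzyme, had the largest log2 fold change of all 40 members under each siRNA. Acot2 stood at 7.17, 10.4 and 9.27 CPM in the siNtc BSA libraries and at 74.4, 84.9 and 85.6 CPM in the siNtc PA libraries. With siErk3, its level was 9.46, 10.1 and 8.16 CPM in BSA and 93.4, 84.2 and 75.7 CPM in PA. In siMk5 these values were 9.46, 11.2 and 9.18 CPM (BSA) and 85.4, 80.1 and 72.2 CPM (PA). The lowest PA library was far above the highest BSA library. The rise was 8.90-fold in siNtc, 9.17-fold in siErk3 and 7.99-fold in siMk5, with log2 fold changes of 3.15 in siNtc (SE 0.10, FDR = 1.1e-21), 3.20 in siErk3 (SE 0.10, FDR = 2.07e-22) and 3.00 in siMk5 (SE 0.10, FDR = 2.68e-21). Acot1, the cytosolic enzyme, lies 15616 bases further along chromosome 12 and is nearly identical in sequence, so that read pairs could be counted for either. Its log2 fold changes were -0.27, -0.49 and -0.38 and did not pass. Acot13 gave 0.09, 0.23 and 0.31, with an FDR below 0.05 in siErk3 and siMk5 and a fold change below 1.3.

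Levels can be compared between genes only per length. The length used here takes in every annotated exon of a gene, so levels per length depend on the annotation as well. Over the 18 libraries, Hadha had 65130 counts on 8730 exonic bases, and Acadvl had 33844 counts on 2686. The order of genes below and the Acsl shares above carry this limit. As CPM per kb of exon not shared on the same strand, the highest members in siNtc BSA were Acadl at 80.1 ± 6.12, Acaa2 at 50.3 ± 2.09, Acsl3 at 49.2 ± 2.85, Etfa at 41.4 ± 2.16 and Acadvl at 35.8 ± 0.692 (SD, n = 3). The ranges of Acaa2 and Acsl3 overlapped, and their order is not resolved by these libraries. Slc27a1 stood at 8.92 ± 0.151 and rose to 39.1 ± 1.66 in siNtc PA. Acot2 went from 4.08 ± 0.751 to 37.2 ± 2.85, and Cpt1a from 9.62 ± 0.785 to 21.7 ± 1.91 (SD, n = 3). At the lower end were Acot1 at 0.588 ± 0.0307, Cpt1b at 0.568 ± 0.146 and Ehhadh at 0.0901 ± 0.0657 (SD, n = 3). The value of Cpt1b rests on 628 unshared bases, and read pairs that reach its shared exons were not counted.

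**Figure D4:**
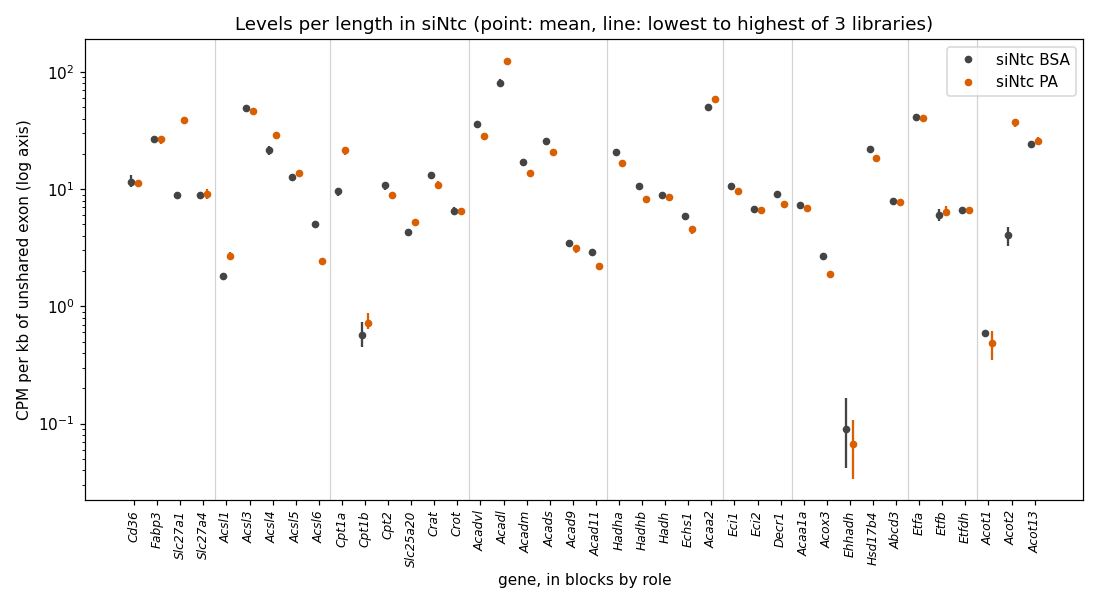
CPM per kb of unshared exon for each member in siNtc BSA and siNtc PA, on a log axis, with the mean as a point and a line from the lowest to the highest of 3 libraries. Acadl is the highest member in both media, and Cpt1b, Acot1 and Ehhadh are the lowest in BSA. The counts of Cpt1b leave out its exons shared with Gm44502.

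Summed over the 40 members, the level was 2111 to 2168 CPM in siNtc BSA and 2389 to 2455 in siNtc PA. It was 2095 to 2183 against 2441 to 2479 in siErk3 and 2111 to 2189 against 2433 to 2488 in siMk5. The PA libraries were above the BSA libraries each time. Then 4 genes that rose, Slc27a1, Acot2, Acadl and Cpt1a, were set aside after their values were seen. The sum of the other 36 was 1820 to 1866 CPM in siNtc BSA and, lower, 1665 to 1752 in siNtc PA. It was 1818 to 1892 against 1692 to 1769 in siErk3 and 1820 to 1891 against 1708 to 1787 in siMk5. Removing genes that rose lowers the PA sum by construction, so this is a description only. Acsl1, which also rose, was left in. By role, the 4 uptake genes, of which Slc27a1 alone met both criteria in siNtc, summed to 150.0 to 162 CPM in siNtc BSA and 325 to 336 CPM in siNtc PA. The 3 thioesterases, of which Acot2 alone met both criteria, summed to 27.1 to 32.2 CPM and 97.4 to 106 CPM in these groups. For the 5 genes of the later spiral steps, the sum was 418 to 424 CPM in siNtc BSA and, lower, 361 to 382 CPM in siNtc PA. For the 3 genes of electron transfer it was 126 to 132 CPM and 123 to 130.2 CPM, where the groups overlapped. Activation summed to 433 to 471 CPM in siNtc BSA and 455 to 476 in siNtc PA, which overlapped too. In the same order, carnitine transfer gave 215 to 234 and 287 to 318 CPM, and the dehydrogenases 430 to 445 and 465 to 473. Of the 6 carnitine transfer genes, Cpt1a alone met both criteria in siNtc. Of the 6 dehydrogenases, Acadl alone had a positive log2 fold change in siNtc, 5 had a negative one, and their median was -0.30. The auxiliary enzymes gave 93.0 to 97.0 and 83.6 to 89.3 CPM, and peroxisomal oxidation 189 to 195 and 161 to 172.

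Other genes of the pathway were counted beside the members in siNtc, where 15.5% of all genes tested rose and 15.1% fell. These lists were set by name, with earlier results of these data known, so their counts are no test of the lists. Of 33 other fatty acid genes tested, 3 rose and 11 fell, and those with the smallest FDR were Oxct1, for the use of ketone bodies, at -0.98 (SE 0.06, FDR = 1.31e-14), the oxidase gene Acox2 at 3.04 (SE 0.21, FDR = 1.52e-13) and the thiolase gene Acat1 at -0.71 (SE 0.07, FDR = 2.06e-10). Of 8 PPAR-responsive reference genes, 6 rose and 0 fell, led by Angptl4 at 4.09 (SE 0.06, FDR = 2.6e-30), Plin2 at 3.03 (SE 0.07, FDR = 1.3e-25) and Pdk4 at 1.61 (SE 0.07, FDR = 9.01e-19). For these 8 genes it was 5 and 0 in siErk3 and 5 and 1 in siMk5. Of 20 regulators, 5 rose and 4 fell, with Klf15 at 4.06 (SE 0.23, FDR = 2.48e-15), Ppard, the PPAR form prominent in muscle, at 0.94 (SE 0.07, FDR = 7.41e-13) and Tfam at 0.53 (SE 0.06, FDR = 1.06e-08). All are log2 fold changes from edgeR. The median log2 fold change in siNtc was -0.17 for the other fatty acid genes, 1.56 for the PPAR-responsive reference genes and 0.16 for the regulators, beside -0.03 for all genes tested.

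Markers of the state of the cells moved with PA too. Of 12 myotube markers, 6 fell in siNtc, 3 in siErk3 and 3 in siMk5, beside 15.1%, 16.3% and 14.6% of all genes tested. The summed level of these markers was 17900 to 18503 CPM in siNtc BSA and 15306 to 15800 in siNtc PA. Of 10 markers of undifferentiated and cycling myoblasts, 9 fell under each siRNA, beside the same shares of all genes. The sum of these 10 was 1087 to 1128 CPM in siNtc BSA and 498 to 591 CPM in siNtc PA. The 3 adipocyte markers that passed the filter, of which Fabp4 is also among the other fatty acid genes, summed to 28.6 to 31.3 CPM in siNtc BSA and 21.5 to 26.5 in siNtc PA. The part of these shifts in the members' values was not tested, and in such bulk samples fewer cells of a type and less RNA per cell cannot be told apart.

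Silencing of Erk3 or Mk5 was then set against siNtc within each medium. The comparisons within a medium share the siNtc libraries and are given side by side. In BSA, 0 of 40 members changed with siErk3 (all genes 0.785%) by edgeR's quasi-likelihood test, 3 had an unadjusted p under 0.05 (all genes 10.6%), and DESeq2 called 0 (158 of all genes). In BSA with siMk5 it was 0 (all genes 0.0643%), with 4 at an unadjusted p under 0.05 (all genes 6.89%) and 0 in DESeq2 (17 of all genes). In PA, 1 member changed with siErk3 (all genes 0.556%, 0.432% higher), 7 had an unadjusted p under 0.05 (all genes 8.28%), and DESeq2 also called 1 (110 of all genes). In PA with siMk5 it was 0 (all genes 0.547%), with 5 at an unadjusted p under 0.05 (all genes 6.79%) and 0 in DESeq2 (111 of all genes). The 95% interval of the log2 fold change lay inside the 1.3-fold limits for 37 members with siErk3 in BSA, 36 with siErk3 in PA, 35 with siMk5 in BSA and 37 with siMk5 in PA.

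The 1 member that changed was Cd36, higher in siErk3 PA than in siNtc PA. Its level was 41.6, 38.3 and 41.6 CPM in siNtc PA and 59.6, 48.4 and 53.00 CPM in siErk3 PA. Every siErk3 library was above every siNtc library (two-sided exact permutation test, p = 0.1, the smallest p that 3 against 3 allow), and siErk3 libraries lay above siNtc libraries in this way for 6.3% of all genes. The log2 fold change was 0.41 (SE 0.09, edgeR FDR = 0.0180). The call was lost without siNtc PA replicate 2 (0.37, FDR = 0.17) or without siErk3 PA replicate 1 (0.32, FDR = 0.0865). In BSA, siErk3 gave 0.12 (edgeR FDR = 0.721). With siMk5, Cd36 gave -0.34 in BSA (edgeR FDR = 0.248) and, after PA, 0.15 (edgeR FDR = 0.862), and without siMk5 BSA replicate 1 the value in BSA was -0.50 (edgeR FDR = 0.0147). The siMk5 BSA libraries are those with the highest 18S share, and its part in that value was not tested.

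**Figure D5:**
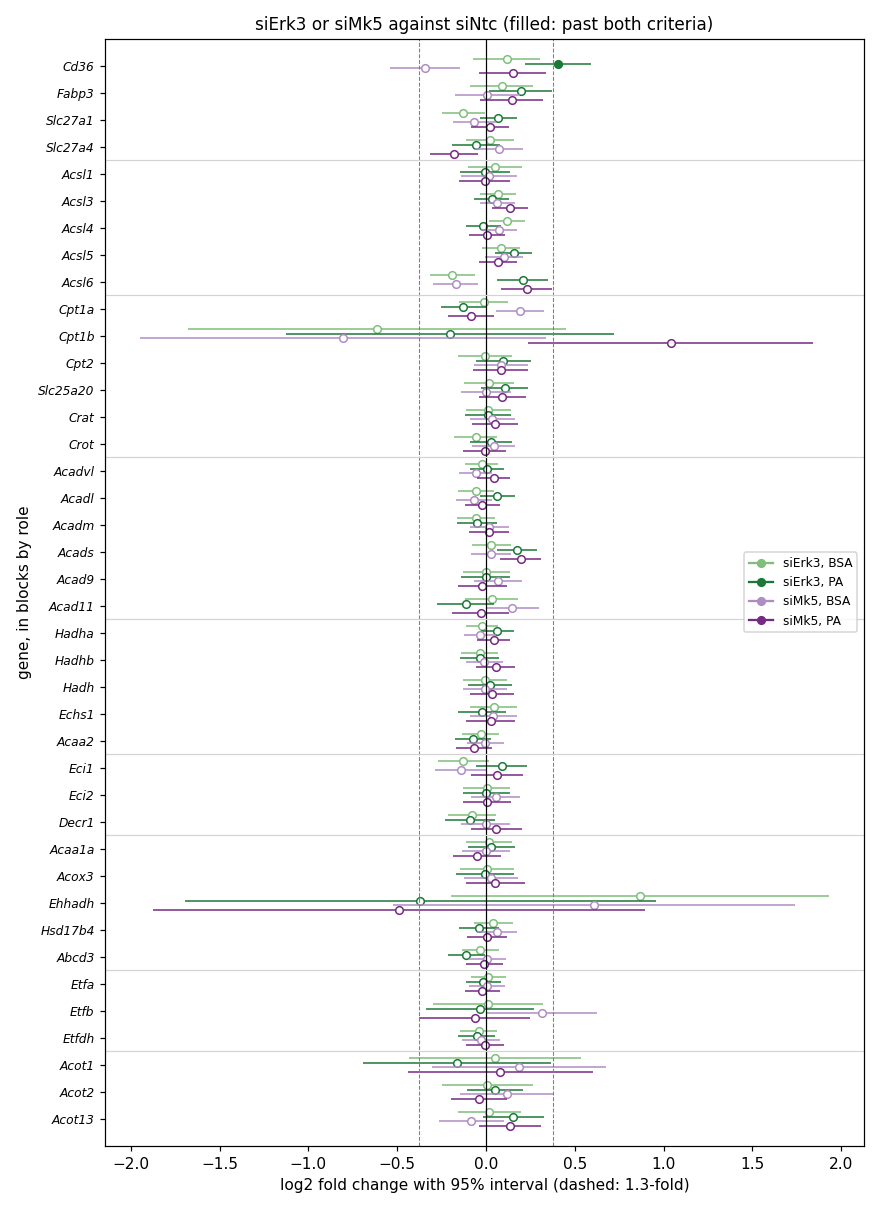
Log2 fold change of siErk3 or siMk5 against siNtc for each member, in BSA and in PA, with 95% intervals. The filled point is Cd36 with siErk3 in PA, and the wide intervals belong to Cpt1b, Ehhadh and Acot1, which have few counts.

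Of the genes that rose with PA, Slc27a1 was at 0.07 with siErk3 and 0.02 with siMk5 in PA, Acot2 at 0.05 and -0.04, Cpt1a at -0.13 and -0.08, and Acadl at 0.06 and -0.02 (log2, edgeR FDR from 0.596 to 0.988). In BSA the values were -0.13 and -0.07 for Slc27a1, 0.01 and 0.12 for Acot2, -0.01 and 0.19 for Cpt1a, and -0.06 and -0.07 for Acadl. All 3 siMk5 libraries were above the siNtc libraries for Cpt1a in BSA (edgeR FDR = 0.500), and for Slc27a1 the libraries of both silencings were below them (edgeR FDR = 0.430 and 0.861). In BSA with siMk5, 5 members were above in this way and 4 below, beside 1589 and 1094 of the 21772 genes tested. With siErk3 it was 0 above and 4 below, beside 2501 and 1293 of all genes. Whether silencing altered the response to PA was tested by interaction. By edgeR's quasi-likelihood test, 0 members passed for siErk3 (all genes 0.0367%), with 4 at an unadjusted p under 0.05 (all genes 6.1%) and 1 in DESeq2 (7 of all genes). For siMk5 0 passed (all genes 0.211%), with 6 at an unadjusted p under 0.05 (all genes 7.43%) and 1 in DESeq2 (59 of all genes). The DESeq2 call was Acsl6 in each. For Acot2 the 95% interval of the interaction was -0.26 to 0.34 with siErk3 and -0.46 to 0.15 with siMk5. For Slc27a1 it was 0.04 to 0.36 (edgeR FDR = 0.690) and -0.07 to 0.25 (edgeR FDR = 0.829).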

How the data were processed

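Poly(A)-selected, strand-specific RNA libraries of C2C12 myotubes (18 in 6 groups, named by the sample labels) were analysed. The authors deposited counts of read pairs per gene, not normalized. Per the file headers they came from featureCounts 2.0.0 with the Ensembl 105 annotation of GRCm39, strand setting 2 and a minimum mapping quality of 3, so that pairs on exons of several genes stayed unassigned and near-identical genes can share pairs. The submitters' notes also list mm10. A further table of log2 values was not used.

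Genes below 10 counts over all libraries were dropped, and the rest were normalized by TMM and fitted in edgeR 4.0.16 (R 4.3.3, limma 3.58.1) with a coefficient per group. Intervals are the log2 fold change ± the t quantile times its SE. Symbols came from GENCODE M39, exon lengths from the deposited count table and promoters from RefSeq (GRCm38.p6). The members and lists were chosen with earlier results of these data known.

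Values per library are given for members past both criteria in any comparison, at most 12 by the smallest FDR with PA, for those past both with silencing, and for Cpt1a, Cpt1b, Cpt2 and Slc25a20. Of the other lists, the 3 genes with the smallest FDR in siNtc are named. Alternatives were DESeq2 1.42.0, its size factors, other filters, the FDR alone, only the groups compared, the replicate number as a block, and leaving out each library. On simulated counts over 21323 genes, 87 of 100 genes changed by 0.5 and 100 of 100 changed by 1 (log2) were called with PA in siNtc, with 2 unchanged genes. The changed genes were drawn only from genes with more counts than Cpt1b, Ehhadh and Acot1, so these rates do not cover those members. Far fewer genes were changed there than changed with PA in the data. Python 3.11.15 with pandas 2.3.3, scipy 1.17.1 and matplotlib 3.10.9 made the tables and figures. Counts of the least abundant members carry most counting error.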

Additional observations from a re-analysis of the deposited data

How the results depend on the processing

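Of 384 alternative fits of the values of genes past both criteria, 374 kept direction and call, 10 fell short of a criterion (Acsl4, Echs1, Ehhadh and Cd36) and 0 reversed. On FDR alone, 22 members passed with PA in siNtc, 27 in siErk3 and 25 in siMk5. With single libraries left out, the counts ran from 8 to 11, 9 to 12 and 10 to 12, from 0 to 1 for siErk3 in PA, from 0 to 1 for siMk5 in BSA (Cd36, without siMk5 BSA replicate 1) and from 0 to 2 for the siMk5 interaction (Acsl6 and Cd36 without siMk5 BSA replicate 1, Acsl6 without siMk5 PA replicate 1). DESeq2 gave 1 member in the siErk3 and 1 in the siMk5 interaction. Without a filter on low counts these were 1 (Acsl6) and 2 (Acsl6 and Cd36). In that fit edgeR's prior degrees of freedom were infinite, against 17.3 with the filter, so that no gene kept a spread of its own, and the calls over all genes went from 8 to 72 for siErk3 and from 46 to 130 for siMk5.

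Replicate numbers are shared by the groups, but deviations of same-numbered libraries correlated at a mean r of -0.0037 (-0.61 to 0.53 across 10553 genes, which are not independent). A library correlated best with its own number in 33 of 90 cases, so the numbers did not pair the libraries across all groups. The mean joins unlike values. For replicates 1, 2 and 3 in PA, r was 0.53, 0.04 and 0.44 between siErk3 and siMk5. Between siNtc and siErk3 it was -0.61, 0.003 and -0.61. Whether PA libraries of the same number share a batch was not tested. With the number as a block, 10, 10 and 11 members passed with PA, 1 for siErk3 in PA, 1 in the siMk5 interaction (Cd36, 0.51, edgeR FDR = 0.0282), and 0 in the other comparisons. Few counts limit Cpt1b, Ehhadh and Acot1, and those of Cpt1b also leave out its shared exons.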
